A study of Mus musculus with 2 samples.

Results

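The data were the expression values of 10 genes of the follistatin, activin, myostatin and bone morphogenetic protein (BMP) group among the 22882 gene symbols measured by RNA-seq in mouse heart. The members were Fst, Fstl1, Fstl3, Inhba, Inhbb, Mstn, Bmp2, Bmp4, Bmp6 and Bmp10, found by gene symbol, and each stood on a single row of the files. They were chosen by their place in this group with the FPKM ratio of csMed1-/- to Med1fl/fl heart already known, so every ratio below is a description and none was tested. FPKM is the number of sequenced fragments scaled to the length of the transcript and to the number of mapped fragments, so levels of different genes can be set side by side.

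The control library was made from Med1fl/fl hearts and the other from csMed1-/- hearts, in which the floxed Med1 alleles are deleted by a Cre transgene under the α-myosin heavy chain promoter, which is active in cardiomyocytes. Both groups carried the floxed alleles, were on the C57BL6/J background, were 23 days old and of mixed sex. The RNA of 5 hearts was pooled for each genotype, so there is 1 library per genotype and no replicate. Sizes of change are given without an error for this reason, and the variation between pools is unknown.

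Activins, myostatin and the BMPs are secreted dimeric ligands of the TGFβ superfamily. They bring together type I and type II receptor serine/threonine kinases, which phosphorylate SMAD proteins, SMAD2 and SMAD3 for activins and myostatin and SMAD1, SMAD5 and SMAD9 for BMPs. The follistatins are secreted proteins that bind activins and myostatin and keep them from their receptors. In heart, BMP signalling is known for its part in the formation of the chambers and valves, and activin and myostatin signalling for the control of muscle growth.

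The sequences below are the 250 bases before the annotated start of the members with the highest ratios, Fstl3 and Inhbb, and of Bmp4, the counted member whose 2 values were nearest to each other. They are from RefSeq on GRCm38.p6, read 5′ to 3′ on the strand of the gene, and lie at chr10:79777024-79777273 on the plus strand (Fstl3), chr1:119422249-119422498 on the minus strand (Inhbb) and chr14:46390670-46390919 on the minus strand (Bmp4). Capitals mark the GC box GGGCGG on either strand.
Fstl3: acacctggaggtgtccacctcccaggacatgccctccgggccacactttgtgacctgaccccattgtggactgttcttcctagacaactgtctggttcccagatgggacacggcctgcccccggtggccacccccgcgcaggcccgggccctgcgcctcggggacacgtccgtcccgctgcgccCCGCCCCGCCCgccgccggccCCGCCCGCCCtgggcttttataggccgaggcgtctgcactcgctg
Inhbb: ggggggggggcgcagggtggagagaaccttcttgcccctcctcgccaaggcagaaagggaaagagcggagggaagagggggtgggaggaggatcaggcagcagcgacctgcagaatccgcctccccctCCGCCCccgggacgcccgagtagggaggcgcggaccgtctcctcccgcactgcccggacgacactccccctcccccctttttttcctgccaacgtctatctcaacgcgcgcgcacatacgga
Bmp4: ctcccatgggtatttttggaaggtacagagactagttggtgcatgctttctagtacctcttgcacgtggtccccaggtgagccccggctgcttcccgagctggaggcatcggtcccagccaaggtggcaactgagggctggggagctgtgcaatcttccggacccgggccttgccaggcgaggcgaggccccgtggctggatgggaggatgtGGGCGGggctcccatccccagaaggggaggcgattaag

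The GC box stood 4 times before Fstl3, where its matches overlap pairwise, and once before each of Inhbb and Bmp4, while 32.7% of the 32851 RefSeq promoter windows of this length hold at least 1. The TATA box TATAAA (12.4% of windows hold it) was matched before Fstl3, 29 to 24 bases from the start, and before neither Inhbb nor Bmp4. This match was on the strand opposite to the gene, and the printed strand reads TTTATA there. The SMAD box CAGAC stood before Fstl3 at 2 places (42.2% of windows hold it), and the nuclear receptor half-site AGGTCA at 1 (14.0% of windows). Neither of these was in the windows of Inhbb and Bmp4, and the AP-1 motif TGANTCA (6.75% of windows) and the CCAAT box CCAAT (33.8%) were in none of the 3. All motifs were searched on both strands, and a match of letters does not show that a factor binds. The GC content was 71.2% for Fstl3, 68.0% for Inhbb and 63.2% for Bmp4, against a median of 52.4% over all windows.

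Genes were counted where both libraries were above 0 and at least 1 of them reached 1 FPKM, which 10489 genes did, and a difference was counted past 2-fold. The libraries summed to 780366 FPKM (Med1fl/fl) and 716365 FPKM (csMed1-/-). Read counts were not used here, so the depth behind a value is unknown, but the spacing of the lowest values gave a relative depth of 1.39 (csMed1-/- over Med1fl/fl), provided that the authors scaled to mapped fragments only. Med1 stood at 3.38 FPKM in Med1fl/fl and at 0.412 FPKM in csMed1-/- heart. Of the 7 cardiomyocyte markers, Myh6 had no row of its own and Actc1 was listed at 0 in the control. The 5 others were counted, Myl2 at 20467 and 6571 FPKM among them, and 4 of these were lower in csMed1-/- heart by more than 2-fold.

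Of the 10 members, 5 met the limit on low values and 5 did not. Fstl3, Inhbb and Fstl1 were higher in csMed1-/- heart by more than 2-fold, Bmp6 and Bmp4 lay within 2-fold, and no counted member was lower by more than 2-fold. Over all genes counted, 31.5% differed by more than 2-fold, 13.6% in the higher and 18% in the lower direction. Fstl3 and Inhbb met the limit through the csMed1-/- library alone, so they could not be counted as lower. For this reason no share of the members is set against these percentages. The remaining members were Fst, Inhba and Bmp2, below 1 FPKM in both libraries, and Mstn and Bmp10, listed at 0 in both.

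**Figure D1:**
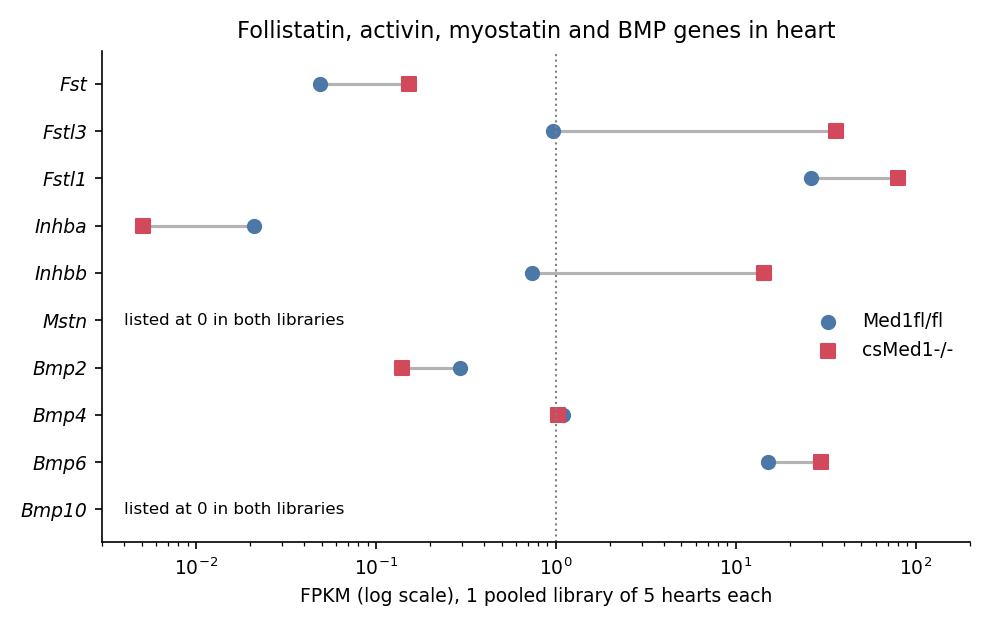
FPKM (log scale) of the 10 members in the Med1fl/fl library (circles) and the csMed1-/- library (squares), 1 pooled library of 5 hearts each; the dotted line is at 1 FPKM. Fstl3 (0.965 to 35.9 FPKM) and Inhbb (0.735 to 14.4 FPKM) have the widest gaps, and Bmp4 (1.10 and 1.03 FPKM) has nearly none.

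Fstl3, a follistatin-like protein that binds activins and myostatin, showed the largest ratio of the members. Its level was 0.965 FPKM in Med1fl/fl and 35.9 FPKM in the csMed1-/- library, a ratio of 37.2 (log2 ratio 5.22), which ranked 20 of the 10489 genes from the highest. By level it ranked 10034 of the 16584 genes above 0 in control and 2264 of the 16773 in csMed1-/- heart. The gene lies on chromosome 10 from 79777272 to 79782630 on the plus strand of GRCm38 (mm10), in GENCODE M21, with 5 exons in its coding transcript of 1955 bases.

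The 3' end of Fstl3 is shared with another gene. Prss57, which encodes a serine protease of neutrophil granules, lies on the minus strand from 79781474 to 79790961, and 1157 bases of exon, 47.3% of those of Fstl3 and 40.7% of those of Prss57, are common to both. Prss57 stood at 1.38 FPKM in Med1fl/fl and 48.2 FPKM in the csMed1-/- library, a ratio of 35.0. The libraries were directional, but whether the counting used the strand is not given in the sources used here, so how reads in the shared stretch were divided between Fstl3 and Prss57 cannot be told. The primary granule genes of neutrophils, Mpo, Elane, Prtn3 and Ctsg, were near 0, summing to 0.00898 FPKM in Med1fl/fl and 0.0814 FPKM in csMed1-/- heart. These genes were picked after the values of Prss57 were seen, and the cell source of the Prss57 value was not tested. By both levels together, the genes most like Fstl3 were Tnfrsf23 (1.18 and 34.1 FPKM, at a distance of 0.295 on the log2 scale), 6030408B16Rik (1.08 and 24.5 FPKM, 0.573) and Prss57 (0.665), a likeness over only 2 libraries.

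**Figure D2:**
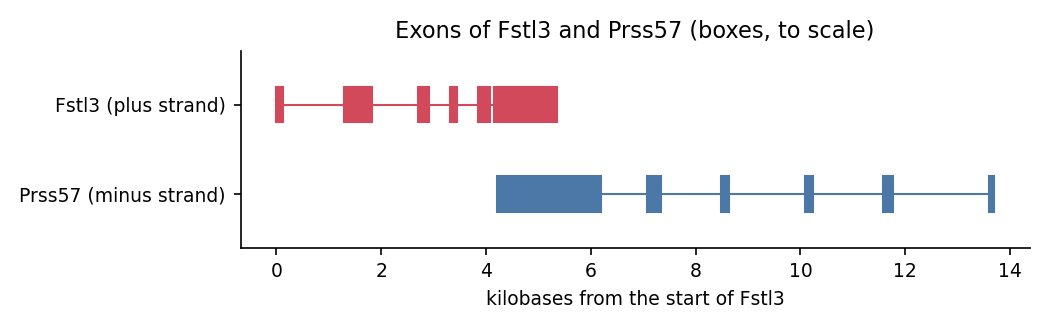
Exons (boxes, all annotated transcripts merged) of Fstl3 on the plus strand and Prss57 on the minus strand, in kilobases from the start of Fstl3, drawn to scale. The last exons of the pair lie over each other for 1157 bases.

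Fst encodes follistatin, the other activin antagonist among the members. It was at 0.0487 FPKM in the control and 0.154 FPKM in the csMed1-/- library, both far below 1 FPKM, and was therefore not counted. The gene lies on chromosome 13 from 114452290 to 114458951 on the minus strand, and the antisense gene Gm47040 shares 115 bases of its exons. The summed level of Fst and Fstl3 was 1.01 FPKM in Med1fl/fl and 36.1 FPKM in csMed1-/- heart. Nearly all of this sum was that of Fstl3 in either library, with the limit given for Fstl3 and Prss57.

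Inhbb encodes the inhibin βB subunit, which forms activin B as a homodimer. It was at 0.735 FPKM in Med1fl/fl and 14.4 FPKM in the csMed1-/- library, a ratio of 19.5 (log2 ratio 4.29) that ranked 58 from the highest. The gene lies on chromosome 1 from 119415465 to 119422248 on the minus strand, with 2 exons and a transcript of 4255 bases, and no annotated gene overlaps it. Inhba, which encodes the βA subunit of activin A and lies on chromosome 13 from 16011851 to 16031621 on the plus strand, was at 0.0212 FPKM in Med1fl/fl and at 0.00505 FPKM in csMed1-/- heart. Its ratio of 0.239 is close to the 0.240 that 1 read in the csMed1-/- library against 3 in the control library would give by the depth steps, so the Inhba values may rest on very few reads. Of the βA and βB subunits, Inhbb was thus by far the more abundant in both libraries.

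Set against each other, the summed levels of the antagonists Fst and Fstl3 and of the activin subunits were both higher in csMed1-/- heart. Inhba and Inhbb summed to 0.756 FPKM in Med1fl/fl and 14.4 FPKM in csMed1-/- heart, 19.0 times as much, while the sum of Fst and Fstl3 was 35.6 times as high, a value that carries the limit given for Fstl3 and Prss57. The quotient of the Fst and Fstl3 sum to the activin subunit sum was 1.34 in Med1fl/fl and 2.51 in csMed1-/- heart. Inha, whose α subunit pairs with a β subunit to form inhibin, was at 2.02 and 3.41 FPKM, within 2-fold.

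**Figure D3:**
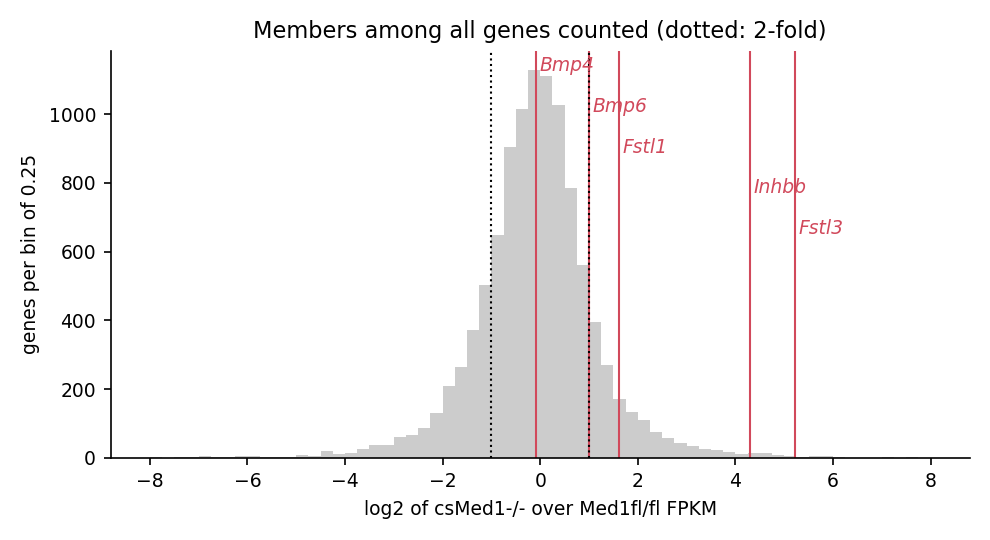
Histogram of the log2 ratio of csMed1-/- to Med1fl/fl FPKM over the 10489 genes counted (grey, bins of 0.25; values beyond 8 are drawn in the end bins), with the 5 counted members as lines and 2-fold as dotted lines. Inhbb (4.29) and Fstl3 (5.22) lie in the far upper tail, Fstl1 (1.61) above 2-fold, Bmp6 (0.997) at the 2-fold line and Bmp4 (-0.09) near the middle.

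Fstl1 encodes a secreted glycoprotein that carries a follistatin-like domain and is made in heart by fibroblasts and other mesenchymal cells. It was the most abundant member, at 26.2 FPKM in Med1fl/fl and 80.2 FPKM in the csMed1-/- library, a ratio of 3.06 (log2 ratio 1.61). It held 59.0% of the summed FPKM of the 10 members in control and 49.6% in csMed1-/- heart. Fstl1 lies on chromosome 16 from 37776873 to 37836514 on the plus strand, with 11 exons and no overlapping gene. By level it ranked 2809 of the genes above 0 in control and 1242 in csMed1-/- heart.

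Some markers of fibroblasts were higher as well. Of the 7 markers, Col1a1 (129 and 502 FPKM), Col1a2 (95.7 and 314 FPKM) and the transcription factor Tcf21 (10.9 and 25.6 FPKM) were higher by more than 2-fold, Lum (8.04 and 3.72 FPKM) was lower, and Col3a1, Dcn and Pdgfra lay within 2-fold. The list summed to 502 FPKM in Med1fl/fl and 1166 FPKM in csMed1-/- heart, and none of its genes was at 0. With ratios centred on housekeeping genes, Tcf21 lay within 2-fold. Smooth muscle markers summed to 615 and 1041 FPKM, but the higher sum rested on Cnn1 (4.32 and 622 FPKM). Tagln (23.8 and 89.7 FPKM) was also higher by more than 2-fold. Rgs5 (10.6 and 16.8 FPKM) and Acta2 (573 and 310 FPKM) lay within 2-fold. Myh11, at 3.68 and 1.79 FPKM, was lower by more than 2-fold. Macrophage markers summed to 246 and 231 FPKM with none of 6 past 2-fold. In RNA of heart tissue, a larger number of cells of a type and more RNA per cell cannot be told apart. The part of these cells in the Fstl1 value was not tested.

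**Figure D4:**
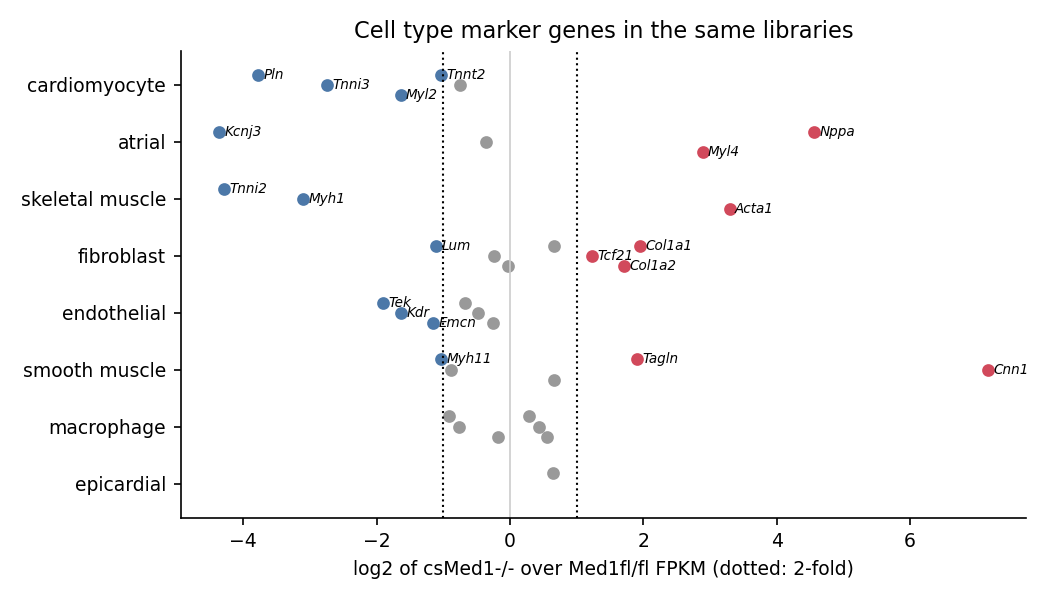
Log2 ratio of csMed1-/- to Med1fl/fl FPKM of the counted marker genes of 8 cell types, 1 point per gene, red where higher and blue where lower by more than 2-fold. All 5 counted cardiomyocyte markers and all 6 endothelial markers lie below 0, and fibroblast markers lie on both sides of it.

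Among the BMPs, Bmp6, which signals through SMAD1 and SMAD5 and is known for the control of iron by way of hepcidin, was the most abundant. It was at 15.0 FPKM in Med1fl/fl and 30.0 FPKM in the csMed1-/- library, a ratio of 1.995 that fell just inside 2-fold, and it held 91.5% and 96.2% of the summed FPKM of the 4 BMPs. With the ratios of all genes centred on their median, its log2 ratio was 1.07 and it lay past 2-fold. Bmp6 lies on chromosome 13 from 38345107 to 38500302 on the plus strand and shares 224 bases of exon, 5.74% of its own, with Txndc5 on the other strand (43.02 and 78.03 FPKM, a ratio of 1.81). The 6 endothelial markers were all lower in csMed1-/- heart, 3 of them by more than 2-fold, and summed to 404 and 263 FPKM, and their part in the Bmp6 value was not tested.

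Bmp4, a ligand with wide roles in the embryonic heart, lay close to its control level. It was at 1.10 FPKM in Med1fl/fl and 1.03 FPKM in csMed1-/- heart (log2 ratio -0.09), and lies on chromosome 14 from 46383520 to 46390669 on the minus strand, where 89 bases of its exons are shared with Gm15217, listed at 0 in both libraries. Bmp2, its closest relative, on chromosome 2 from 133552159 to 133562885, was at 0.293 FPKM in Med1fl/fl and 0.141 FPKM in csMed1-/- heart, under the limit in both, and was not counted. The quotient of Bmp6 to the sum of Bmp2 and Bmp4 was 10.8 in Med1fl/fl and 25.5 in csMed1-/- heart.

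Mstn (chromosome 1 from 53061640 to 53068079), which encodes myostatin, a brake on skeletal muscle growth, and Bmp10 (chromosome 6 from 87428994 to 87437677), known in the postnatal heart from atrial cardiomyocytes, were listed at 0 in both libraries. A listed 0 does not by itself show that an mRNA was absent. Of all symbols, 33 were at 0 in one library and above 10 FPKM in the other. Among them were the cardiac actin gene Actc1 (0 and 9189 FPKM) and the myoglobin gene Mb (0 and 1040 FPKM). Mstn and Bmp10 were at 0 in both libraries, so these symbols do not tell whether their 0 is real. The 5 atrial markers differed among themselves. Nppa (468 and 11114 FPKM) and Myl4 (7.44 and 55.2 FPKM) were higher in csMed1-/- heart by more than 2-fold, and Kcnj3 (2.26 and 0.110 FPKM) was lower. Myl7 (1.42 and 1.10 FPKM) and Sln (0.356 and 0.174 FPKM) were low in both libraries. The amount of atrial tissue in the pools, which bears on the 0 of Bmp10, was not tested. The skeletal muscle markers summed to 218 and 2036 FPKM, nearly all of it Acta1 (207 and 2033 FPKM), while Myh1 and Tnni2 were lower by more than 2-fold. Tnnt3 (0.0967 and 0.867 FPKM) and Actn3 (0.366 and 0.733 FPKM) had higher values and Myh4 (0.878 and 0.135 FPKM) a lower one. All of these lay below 1 FPKM and were not counted. Myod1 was listed at 0 in both, and Myh2 had no row of its own.

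Outside the members, 82 further genes of the pathway were listed, of which 46 were counted. Of these, 11 (23.9%) were higher and 4 (8.70%) lower by more than 2-fold in csMed1-/- heart, against 13.6% and 18% of all genes counted, and their median log2 ratio was 0.39 against -0.07 for all genes. Of the 11, Gdf6, Sost, Smad9 and Pcsk5 met the limit through the csMed1-/- library alone and could not be counted as lower. Of the 4, Bmp7 met it through the control alone and could not be counted as higher. For this reason nothing is read from these shares. None of the 6 counted type I and type II receptors differed by more than 2-fold, from Acvrl1 (23.6 and 28.4 FPKM), which serves endothelial BMP signalling, to the type II receptors Acvr2b (0.919 and 1.13 FPKM) and Bmpr2 (1.02 and 1.08 FPKM).

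Rgma (57.0 and 16.5 FPKM) and hemojuvelin, listed as Hfe2 (193 and 94.2 FPKM), are BMP co-receptors of the repulsive guidance family, and Tgfbr3 (10.4 and 3.64 FPKM) encodes betaglycan. All 3 were lower by more than 2-fold, Hfe2 by 2.05-fold, and the other 3 counted co-receptors, among them endoglin (Eng, 196 and 233 FPKM), were within 2-fold.

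Of 21 secreted antagonists other than the members, 10 were counted, and these were within 2-fold or higher. The other 11 did not meet the limit on low values, and lower as well as higher values in csMed1-/- heart were among them. Nbl1, which encodes a DAN family antagonist of BMPs, was at 18.2 and 80.0 FPKM, a ratio of 4.39, close to the csMed1-/- level of Fstl1. Crim1 (ratio 2.45) and Sost (0.329 and 1.15 FPKM) were also higher by more than 2-fold, and the other 7 of the 10 counted antagonists, Dand5 at 12.5 and 6.45 FPKM among them, were not past 2-fold. Noggin (Nog) was below 0.1 FPKM in both libraries, and Grem1 was listed at 0 in both.

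The proteases that mature these ligands or cleave their antagonists were higher for 3 of the 4 counted, of which Pcsk5 met the limit only through the csMed1-/- library. Furin, which cuts the propeptides of TGFβ family ligands, was at 87.9 and 190 FPKM (ratio 2.16), Pcsk5 at 0.573 and 2.75 FPKM, and Bmp1, a metalloprotease that is no BMP ligand in spite of its name, at 20.6 and 48.8 FPKM. Pcsk6 was at 57.5 and 34.7 FPKM, within 2-fold.

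Among the SMAD genes and their regulators, the inhibitory Smad6 was at 13.0 and 36.3 FPKM (ratio 2.78) and Smad9 at 0.341 and 1.38 FPKM (ratio 4.04). The other 8 lay within 2-fold, including the inhibitory Smad7 (5.53 and 10.6 FPKM), the common Smad4 (10.1 and 7.32 FPKM) and the ubiquitin ligase gene Smurf1 (15.5 and 14.7 FPKM). Of the 6 counted target genes, 2 were higher by more than 2-fold, among them Atoh8, a target of the BMP branch (11.1 and 32.8 FPKM, a ratio of 2.95). The BMP targets Id1 (61.2 and 85.1 FPKM) and Id3 (135 and 202 FPKM) were within 2-fold.

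Other ligands were few. Gdf6, a BMP ligand also called BMP13, was at 0.0674 FPKM in Med1fl/fl and 2.01 FPKM in the csMed1-/- library, a ratio of 29.8 that rests on a control value near that of Fst. Bmp7 was lower, at 1.57 and 0.674 FPKM, and Gdf10 was at 3.35 and 3.22 FPKM. The other 15 ligands did not meet the limit on low values.

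**Figure D5:**
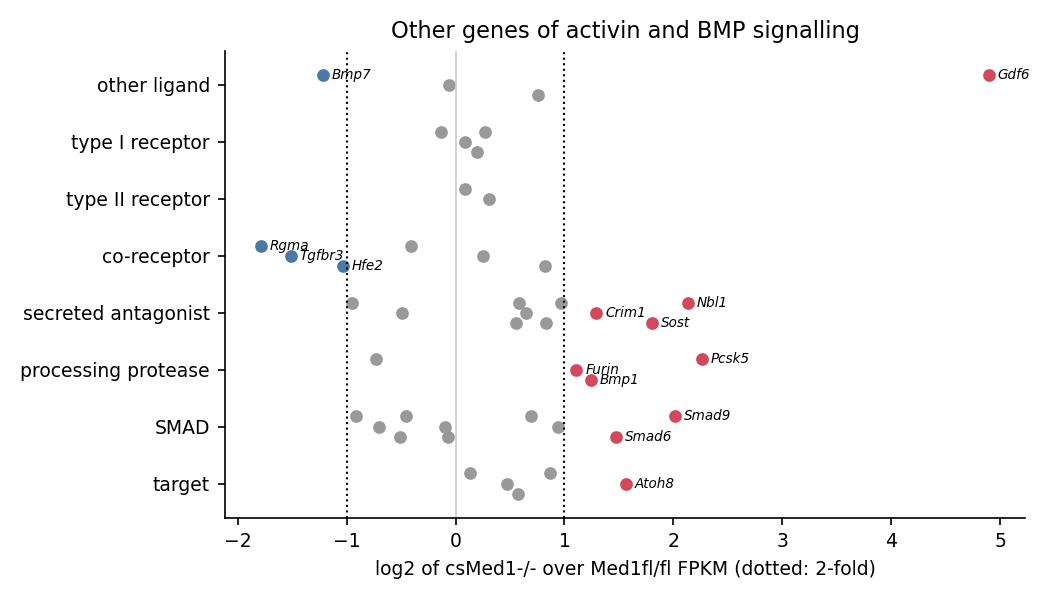
Log2 ratio of csMed1-/- to Med1fl/fl FPKM of the counted pathway genes by role, 1 point per gene (1 target gene is not shown), red where higher and blue where lower by more than 2-fold. Receptors lie between the dotted 2-fold lines, 3 co-receptors lie below them, and antagonists, proteases, SMAD genes and targets have points above them but none below, on the scale of the deposited values.

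These pathway counts depended on the scaling of the libraries. The median log2 ratio of 9 housekeeping genes was 0.49, and with all ratios centred on it 7.30% of all genes were higher and 32.5% lower by more than 2-fold, and 7 pathway genes were higher and 9 lower. Furin, Bmp1, Crim1 and Smad6 then lay within 2-fold, and Dand5, Pcsk6, Smad3 and Smad5 were among those lower by more than 2-fold. Fstl3, Inhbb and Fstl1 lay past 2-fold on this scale too, and Bmp6 had a log2 ratio of 0.50.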

How the data were processed

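RNA-seq values of 2 libraries of mouse heart were used, each made from the pooled RNA of 5 mice of 1 genotype. The authors enriched polyadenylated RNA, made directional single-end libraries, aligned reads to mm10 with TopHat (2.0.8b) and deposited FPKM values computed with Cufflinks and Cuffdiff (2.1.1). The submitters' processing notes also name STAR 2.4.0h, Bowtie2 and DESeq2, without saying for what. Which library scaling was used is not given in the sources used here.

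The deposited FPKM values were used as they stand. Rows sharing a symbol, as 412 symbols do, were summed, and the plain ratio of csMed1-/- to Med1fl/fl FPKM was taken. With 1 library per genotype no test was possible and no p-value was computed. A pseudocount was used only in the alternatives.

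Relative depth was taken from the ratio that recurred most among the rows whose values both lay in the range up to 0.15 FPKM. At a ratio of 0.721 (csMed1-/- value over control value) there were 64 rows in a window of ±0.005 on the natural log scale, against a mean of 17.8 in 4 windows beside it. Positions and exons came from GENCODE M21 on GRCm38, the same assembly as mm10, and promoter windows from RefSeq on GRCm38.p6, which held 8 of the 10 members. Computation used Python 3.11.15, numpy 2.4.6, pandas 2.3.3 and matplotlib 3.10.9. The ratio with its 2-fold count was tested on simulated data with planted changes, and the summing of rows on made-up values. The other steps were not tested in this way.

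The members, gene lists and markers were chosen with earlier results of these data known. The genes named were all members, pathway genes past 2-fold or at 10 FPKM or more, Med1, markers of 8 cell types and the 3 genes nearest to the member with the largest ratio. Others were named after their values were seen: pathway genes at low levels or illustrating a role, genes overlapping or neighbouring a member, neutrophil genes, and abundant genes listed at 0. Single values of 2 pathway genes are not reported here, although the counts of the list include them.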

Additional observations from a re-analysis of the deposited data

How the results depend on the processing

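Results were recomputed with a pseudocount (0.1 or 1 FPKM), with every gene above 0 kept, with a limit of 1 FPKM that both libraries had to reach or of 10 FPKM that either had to reach, after centring on the median, after scaling by the 75th percentile or by the sum without the 100 highest genes, with the highest row of a symbol alone, and at 4-fold. Centring on housekeeping genes was added after seeing the data. With 1 FPKM or more required in both libraries, 1 of 3 members was higher by more than 2-fold, since Fstl3 and Inhbb no longer passed. Of 39 pathway genes 7 were higher, beside 11.3% of all genes. With every gene above 0 in both libraries, 2 members (Inhba and Bmp2) and 14 of 71 pathway genes were lower, beside 20.0% of all genes, and 4 members (Fst added) and 15 pathway genes were higher, beside 15.7%. With 10 FPKM in at least 1 library 6 of 18 pathway genes were higher, beside 15.1% of all genes. With a threshold of 4-fold 5 of 46 were higher and 0 lower, beside 4.32% and 5.14% of all genes. With housekeeping genes 7 of 46 were higher and 9 lower, beside 7.30% and 32.5%. Nothing is read from these shares either. Across the alternatives the log2 ratio ran from 4.23 to 5.29 for Fstl3, from 3.15 to 4.36 for Inhbb, from 1.12 to 1.69 for Fstl1, from 0.50 to 1.07 for Bmp6 and from -0.58 to -0.02 for Bmp4. None changed sign, and the largest moves of Fstl3 and Inhbb came with a pseudocount of 1 FPKM. The 4-fold threshold, the limits and the choice of row could not alter these ratios, and a scaling shifts all genes alike. The unchanged signs are therefore no test of the differences. No paired analysis was possible because each genotype has 1 library, and for the same reason no replicate could be left out. The number of reads behind a value is unknown, which limits values far below 1 FPKM most, such as those of Fst, Inhba and Bmp2 and the control value of Gdf6.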

Other observations

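The protein-coding genes next to the members with the highest ratios were looked at after their values were seen. Beside Fstl3 on chromosome 10, Rnf126, 10.3 kb away, was at 27.5 FPKM in Med1fl/fl and 33.8 FPKM in csMed1-/- heart. Palm, 10.9 kb away on the other side, was at 54.6 and 53.2 FPKM, and Polrmt, which encodes the mitochondrial RNA polymerase and lies 30.7 kb away, at 22.2 and 15.5 FPKM. All 3 were within 2-fold, and of the counted neighbours only Prss57, whose exons overlap those of Fstl3, was past it. Beside Inhbb on chromosome 1, Ralb, 48.1 kb away, was at 13.5 and 10.1 FPKM, and Tmem185b, 103.9 kb away, at 8.12 and 6.41 FPKM. On its other side Gli2, 361.8 kb away, was at 0.985 and 1.35 FPKM. These 3 were also within 2-fold, while Clasp1, 802.8 kb away, was lower, at 33.6 and 10.7 FPKM.

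The neutrophil genes S100a8 (1.74 and 5.85 FPKM), S100a9 (1.51 and 3.79 FPKM) and Ngp (0.2501 and 1.07 FPKM) had higher values in the csMed1-/- library. The 9 neutrophil genes together summed to 3.73 FPKM in Med1fl/fl and 11.7 FPKM in csMed1-/- heart. The part of neutrophils in the Prss57 value was not tested. How reads in the stretch shared with Fstl3 were divided cannot be told. The list of neutrophil genes was written after the value of Prss57 was seen, and no replicate library bears on any of these differences.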
